A study of Mus musculus with 10 samples.

Results

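The regions described here are stretches of chromatin where RNA polymerase III was called in depolarized mouse cortical neurons and in no overlapping position in untreated ones. They are the 2039 regions of the KCl list of Rpc155 on chromosomes 1 to 19 that had no base in common with a region of the untreated Rpc155 list. The KCl list held 4233 regions on these chromosomes, so they made up 48.2% of it. The other 2194 KCl regions overlapped an untreated region and are called shared regions. The untreated list held 12511 regions, of which 10322 overlapped no KCl region. Both Rpc155 lists chose the regions, so this count and the Rpc155 values below are descriptions and support nothing else.

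The data came from chromatin immunoprecipitation followed by sequencing (ChIP-seq) in primary cortical neurons of C57BL/6J mice, cultured for 6 days in vitro and kept overnight in 3% serum. One group was left untreated and the other received 50 mM KCl for 45 min. Antibodies against Gtf3c1, Rpc155, H3K4me1 and H3K27ac gave 8 peak lists, 1 per antibody and condition, with 643019 regions on chromosomes 1 to 19. The design text names 3 biological replicates per condition and a total chromatin input as control, but with a single list for each antibody and condition the spread between replicates could not be measured, and no test was made. The sources used here do not give whether the 4 antibodies were used on the same cultures.

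RNA polymerase III is the enzyme that makes tRNA, 5S rRNA and other short noncoding RNAs, and Rpc155 is its largest, catalytic subunit. At most of its genes TFIIIC binds the promoter first, through subunits that include Gtf3c1, and brings in TFIIIB and then the polymerase. TFIIIC also binds many sites without the polymerase. Raised extracellular KCl depolarizes neurons, lets calcium in through voltage-gated channels and switches on immediate-early genes such as Fos and Npas4, whose products are mostly transcription factors, and then later genes for secreted, signalling and synaptic proteins. H3K4me1 marks enhancers, and H3K27ac marks active enhancers and promoters.

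A minority of the regions reached into the promoter of a gene, and for 6 of these the 250 bases before the annotated start are printed as examples of the DNA concerned. They are the promoters of the 6 listed activity-regulated genes with a promoter window overlapped by a region. The sequences are from RefSeq (GRCm38.p6), 5′ to 3′ along the gene, and capitals mark the bases inside the Rpc155 region. The Fos window lies on the plus strand (chr12:85473640-85473889) and the region entered it by 52 bases next to the start. The Junb window is on the minus strand (chr8:84978749-84978998), with 76 bases inside at its upstream end. The Gadd45b window is on the plus strand (chr10:80929841-80930090), with 39 bases inside. The Dusp6 window is on the plus strand (chr10:99262981-99263230), with 133 bases inside at its upstream end. The Plk2 window is on the plus strand (chr13:110394794-110395043), with 20 bases inside. The Scg2 window is on the minus strand (chr1:79440027-79440276) and lay wholly inside the region.
Fos: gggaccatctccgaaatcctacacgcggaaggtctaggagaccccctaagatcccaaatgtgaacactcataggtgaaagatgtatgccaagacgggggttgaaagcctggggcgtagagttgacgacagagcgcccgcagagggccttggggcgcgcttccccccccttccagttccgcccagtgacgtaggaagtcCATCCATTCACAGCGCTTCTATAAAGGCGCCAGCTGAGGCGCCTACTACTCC
Junb: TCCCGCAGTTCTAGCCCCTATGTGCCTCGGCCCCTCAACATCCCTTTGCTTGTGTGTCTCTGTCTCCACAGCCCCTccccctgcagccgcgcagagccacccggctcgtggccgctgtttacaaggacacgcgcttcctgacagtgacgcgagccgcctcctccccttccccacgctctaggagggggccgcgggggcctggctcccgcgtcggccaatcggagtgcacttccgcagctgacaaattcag
Gadd45b: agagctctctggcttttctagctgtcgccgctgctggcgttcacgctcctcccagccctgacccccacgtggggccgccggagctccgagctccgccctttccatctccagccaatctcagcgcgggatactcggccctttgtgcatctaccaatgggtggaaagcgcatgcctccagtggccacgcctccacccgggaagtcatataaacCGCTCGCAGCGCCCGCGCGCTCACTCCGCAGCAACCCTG
Dusp6: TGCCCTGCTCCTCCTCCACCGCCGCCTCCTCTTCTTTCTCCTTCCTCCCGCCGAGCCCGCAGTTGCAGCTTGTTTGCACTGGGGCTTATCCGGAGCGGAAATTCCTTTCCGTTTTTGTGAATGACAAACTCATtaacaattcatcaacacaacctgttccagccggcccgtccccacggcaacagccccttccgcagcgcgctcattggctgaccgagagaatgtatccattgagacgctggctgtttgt
Plk2: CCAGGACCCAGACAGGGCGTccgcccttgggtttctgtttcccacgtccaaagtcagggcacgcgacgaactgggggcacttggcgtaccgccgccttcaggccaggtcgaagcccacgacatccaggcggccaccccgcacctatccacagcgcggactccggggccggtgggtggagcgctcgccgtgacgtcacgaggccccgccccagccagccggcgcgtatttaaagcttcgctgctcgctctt
Scg2: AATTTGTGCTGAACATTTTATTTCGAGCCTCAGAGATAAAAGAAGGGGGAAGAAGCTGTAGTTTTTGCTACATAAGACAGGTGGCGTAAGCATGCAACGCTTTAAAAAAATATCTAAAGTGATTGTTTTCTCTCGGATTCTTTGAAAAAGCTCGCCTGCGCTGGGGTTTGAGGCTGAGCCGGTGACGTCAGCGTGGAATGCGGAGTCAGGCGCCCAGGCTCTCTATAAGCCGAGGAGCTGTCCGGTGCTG

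Most of the regions were weak. The fold enrichment is the authors' ratio of the summit signal to a background. For 78.9% of the regions it fitted a single list-wide background. It ran from 2.43 to 12.2 with a median of 3.61, and 90% of the regions lay at or below 4.54. The shared regions had a median of 4.00 and reached 64.7, and the untreated regions without a KCl counterpart had a median of 3.40 and reached 12.6. The regions found with KCl alone therefore had the values of the bulk of either list and lacked the strong upper tail of the shared regions. The −log10 q, the peak caller's error estimate after correction for many positions, ran from 1.47 to 48.3 with a median of 3.46. Regions were 259 to 1495 bp wide, with a median of 360 bp.

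**Figure D1:**
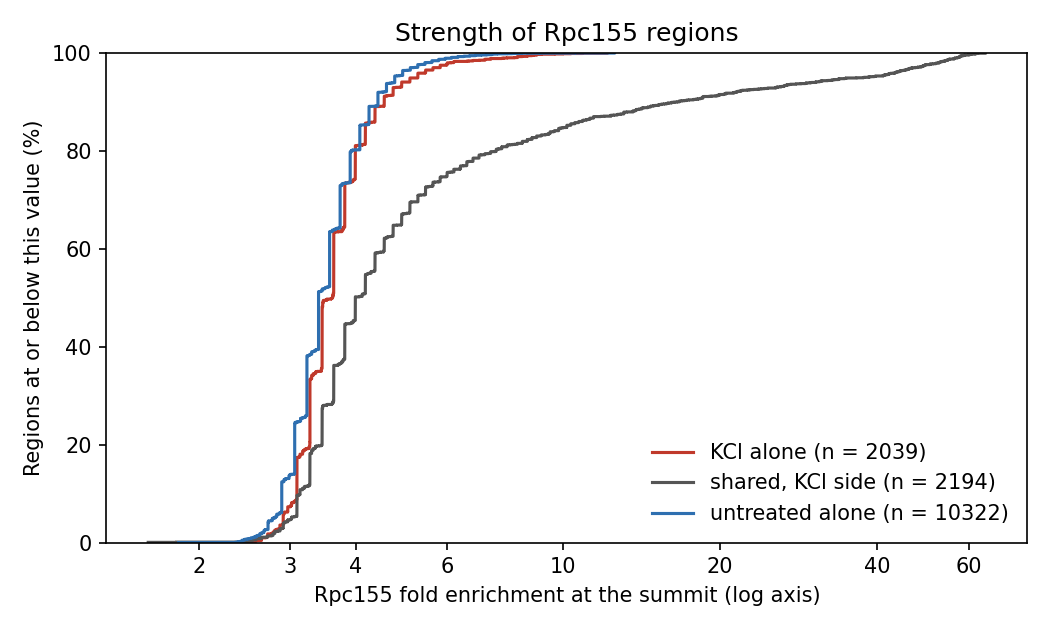
Cumulative share of regions (vertical axis, percent) by the authors' Rpc155 fold enrichment (horizontal axis, log scale) for the 2039 regions of the KCl list alone, the 2194 shared regions with their KCl values and the 10322 regions of the untreated list alone. The curves of the regions found in 1 condition alone end near 12, while the shared regions run on to 64.7.

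How firmly such a region can be called absent from untreated cells is limited by counting. The fold values allowed the number of fragments at the summit to be worked back for 1609 regions (78.9%), with a median of 19 fragments and a range of 15 to 66. A count of 19 has a Poisson 95% interval of 11.4 to 29.7, and the lowest summit in the untreated list had 15 fragments. The interval of 1420 of the regions (88.25% of those with a count) reached below 15. For these a difference between present in the KCl list and missing from the untreated one could lie within the counting error of a single summit. The untreated signal at these positions is not given in the lists.

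The nearest untreated region was 19380 bp away in the median and 1999162 bp away at most. In 82 cases (4.02%) it lay within 100 bp, in 462 (22.7%) within 1000 bp and in 838 (41.1%) within 10000 bp. The closest case was a region beside Sncb, which encodes beta-synuclein (chromosome 13, 54757041 to 54757959, fold 7.08), with an untreated region 2 bp away. Regions beside Ssbp3 (fold 3.35) and in Ubald1 (fold 2.43) had one 4 bp away. Just outside the rule were shared regions beside Tubb3, the neuronal beta-tubulin gene (fold 3.81), beside Wipf3 (2.80) and in Slc24a4 (4.18), which had 3, 4 and 7 bp in common with an untreated region. The regions made up 39.85% of the KCl list on chromosome 13 and 55.8% on chromosome 16, the lowest and highest of the 19 chromosomes.

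The 20 regions with the highest −log10 q, all at 24.3 or above, were chosen by their Rpc155 values, and 16 of them had the summit inside a named protein-coding gene. The strongest lay in Grk5, a G protein-coupled receptor kinase gene (chromosome 19, 60890836 to 60891295, fold 12.2), 1332 bp downstream of the start and 24361 bp from the nearest untreated region. The next lay in Sez6l2, a neuronal surface protein gene (fold 10.9), only 139 bp from an untreated region. Others were in Myt1l, a neuronal zinc finger gene (10.35), Mapk10, the gene of the stress kinase JNK3 (9.08), Adgrl3, an adhesion receptor gene (9.63), Sik1, a salt-inducible kinase gene induced by activity (8.90), Zeb2, a zinc finger repressor gene (8.54), and Kcnk1, a potassium channel gene (8.54).

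Further members of this group lay in Adamts6, a metalloprotease gene (fold 9.99), Zfp804a, a zinc finger gene (8.72), Gdf11, a growth factor gene (8.54), Zswim5 (8.35), Chst1, a sulfotransferase gene (8.17), Lrrc8c, a volume-regulated anion channel subunit gene (8.17), Mfhas1 (8.07) and Tmem74, an autophagy gene (7.81). A region 665 bp from Kcnn2, which encodes a small-conductance calcium-activated potassium channel, had a fold of 8.90. The other 3 were far from the genes used for naming: 305575 and 528572 bp from Usp25 (8.77 and 8.90) and 382593 bp from Sorl1 (7.69). The first lay 525 bp downstream and the last 2470 bp upstream of the start of a gene model not used for naming. Of these 20 regions 15 lay more than 1 kb from any untreated Rpc155 region.

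Gtf3c1 was not used by the rule, and at these 20 regions it was listed in both conditions without exception. Its fold enrichment in the untreated list ran from 4.66 to 13.8 with a median of 6.85, and in the KCl list from 10.4 to 26.7 with a median of 18.4. The KCl value was the higher at 20 of 20, by 1.35 to 5.43 times, and at least 2.0 times the untreated value at 16. Over all 29472 overlapping Gtf3c1 regions the KCl value was the higher in 47.6%, and 1.96% reached 2.0 times. At Grk5 the Gtf3c1 fold was 8.24 untreated and 23.0 with KCl. At Sik1 it was 4.66 and 25.3, the widest ratio of the 20, and at Tmem74 12 and 16.1, the narrowest. The summit of the KCl Gtf3c1 region lay inside the Rpc155 region at all 20. H3K27ac was less uniform: 17 of the 20 were listed in both conditions, 12 of them with the higher value in KCl, 2 in the KCl list alone (Grk5, 10.3, and Adamts6, 4.59) and 1, in Gdf11, in neither.

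Over all 2039 regions, Gtf3c1 was listed at most before KCl. A Gtf3c1 region was listed in untreated neurons at 1271 of them (62.3%, exact 95% interval 60.2 to 64.4) and with KCl at 1471 (72.1%, 70.1 to 74.1). The 2194 shared regions had Gtf3c1 at 89.3% and 90.7%. The 10322 untreated-alone regions showed the opposite order, with 73.2% untreated and 63.8% with KCl. Intervals in the text are Clopper-Pearson and cover counting error only.

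**Figure D2:**
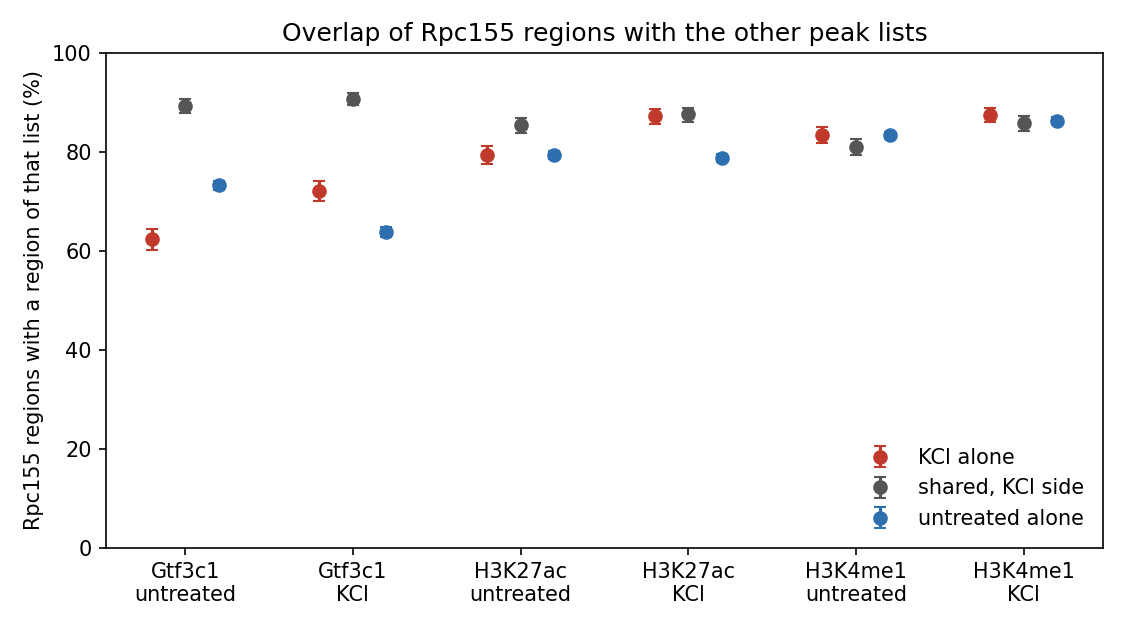
Share of Rpc155 regions (vertical axis, percent) that had at least 1 bp in common with a region of each of the 6 other lists, for regions of the KCl list alone, shared regions and regions of the untreated list alone, with exact 95% intervals for counting error as bars. For Gtf3c1 the regions of the KCl list alone stand higher with KCl (72.1%) than untreated (62.3%), and those of the untreated list alone stand the other way round (63.8% and 73.2%).

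Split by state, 1105 of the 2039 regions (54.2%) had Gtf3c1 in both lists, 366 (17.95%) in the KCl list alone, 166 (8.14%) in the untreated list alone and 402 (19.7%) in neither. Of the 1471 with KCl Gtf3c1, the 366 without an untreated Gtf3c1 region were 24.9%, against 48.9% over all KCl Gtf3c1 regions and 6.48% among shared Rpc155 regions. In 159 of the 366 the KCl Gtf3c1 region was wide enough to overlap an untreated Gtf3c1 region elsewhere, outside the Rpc155 region, so there the state describes the edges of Gtf3c1 regions. The summit of the KCl Gtf3c1 region lay inside the Rpc155 region in 152 of the 366.

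Where Gtf3c1 was listed in both conditions, the median fold was 4.66 untreated and 5.74 with KCl, with a median ratio of 1.22. The KCl value was the higher at 789 of 1105 regions (71.4%), and at least 2.0 times the untreated value at 152 (13.8%). Over all 29472 overlapping Gtf3c1 regions the median ratio was 0.963, the KCl value was the higher in 47.6%, and 1.96% reached 2.0 times. The shared Rpc155 regions had a median ratio of 1.15 with 9.73% at 2.0 times or more, and the untreated-alone regions 0.918 with 2.54%. Each value here is that of the strongest overlapping Gtf3c1 region, whose summit lay inside the Rpc155 region in 739 of 1471 cases (50.2%). Where it did and both lists had a region, the ratio was 1.24 over 587 regions, with the KCl value higher in 70.2%. The 2039 regions and the Gtf3c1 values come from the same pair of conditions, and the values were not adjusted between lists.

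The Gtf3c1 share moved with the strength of the Rpc155 region. From the weakest class (−log10 q under 2) over classes from 2, 3 and 5 to the strongest (10 and over), KCl Gtf3c1 was listed at 62.6%, 66.3%, 72.5%, 86.1% and 98.8%. The last share is 84 of 85 regions. Untreated Gtf3c1 followed the same order at 52.8%, 58.0%, 63.9%, 69.6% and 91.8%. In the 320 untreated-alone regions of the strongest class the shares were 90.6% untreated and 85.9% with KCl. Among the strongest class of the KCl-alone regions the median Gtf3c1 fold was 6.81 untreated and 13.1 with KCl over the 77 listed in both, higher with KCl in 72 and at least 2.0 times in 36. Below a −log10 q of 5 the median ratio was 1.17.

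**Figure D3:**
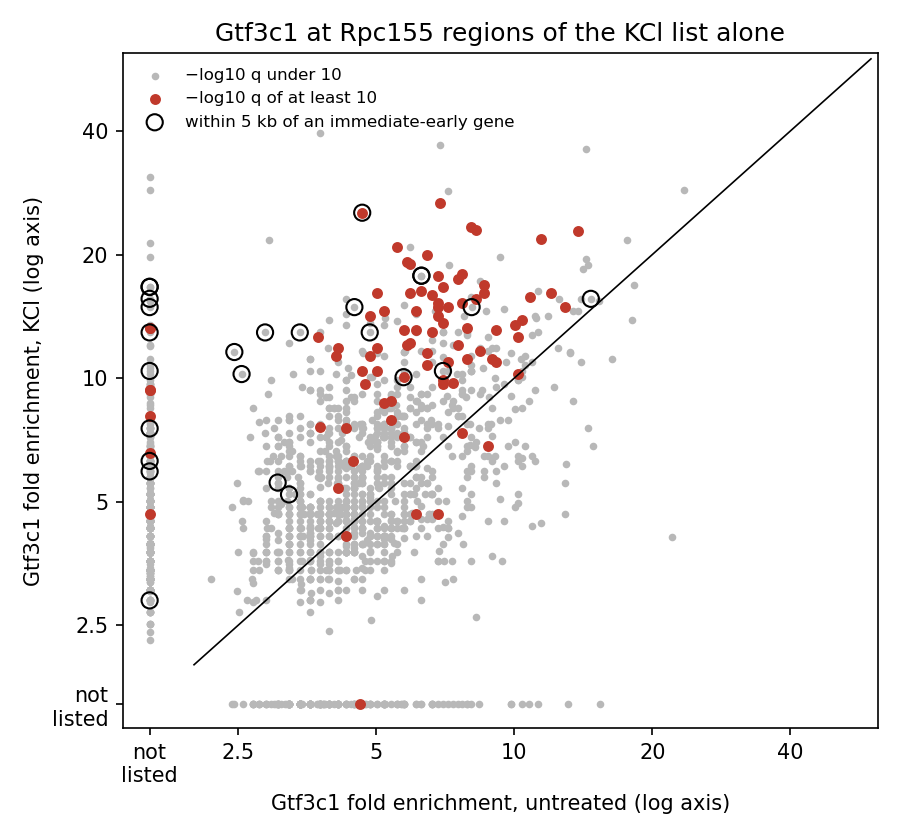
Gtf3c1 fold enrichment at each region of the KCl Rpc155 list alone, untreated (horizontal axis) against KCl (vertical axis), both on log scales; points in the strips were not listed in one condition and the line marks equal values. Red points are regions with an Rpc155 −log10 q of at least 10, of which 72 of 77 listed in both conditions lie above the line, and rings are the regions within 5 kb of an immediate-early gene.

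Among regions with Gtf3c1 in the KCl list alone, the highest Gtf3c1 values illustrate the widths involved. A region in Pakap, a protein kinase A anchoring protein gene (Rpc155 fold 3.09), overlapped a KCl Gtf3c1 region of fold 30.9 whose summit lay 675 bp outside it. In Ube2b, a ubiquitin-conjugating enzyme gene (Rpc155 5.09), the Gtf3c1 fold was 28.7 with the summit 514 bp away. In Noct, which encodes nocturnin (3.81), it was 21.4 at 598 bp, and next to Abhd16a, a lipase gene (3.81), 19.7 at 487 bp. Across one end of Egr1 (4.72) it was 16.7, with the summit inside the Rpc155 region, in a Gtf3c1 region 8228 bp wide. All 5 KCl Gtf3c1 regions overlapped an untreated one outside the Rpc155 region.

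The 402 regions with no Gtf3c1 in either list reached an Rpc155 −log10 q of 9.82. The strongest 5 lay in Eya1, a developmental phosphatase and coactivator gene (fold 5.27), Osgep, a gene for a tRNA-modifying enzyme (4.90), Hip1, a huntingtin-interacting protein gene (4.90), beside Arhgap20 (4.90), and 450699 bp from Sox2 (4.72). H3K27ac at these 5 differed: at Osgep it was listed with KCl alone (11.5), at Arhgap20 it was 14.4 untreated and 12.2 with KCl, and near Sox2 it was in neither list.

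The chromatin at the regions carried active marks in both conditions. H3K27ac overlapped 1619 regions (79.4%, 77.6 to 81.1) untreated and 1779 (87.3%, 85.7 to 88.7) with KCl. Among shared regions the shares were 85.4% and 87.6%, and among untreated-alone regions 79.5% and 78.8%. H3K27ac was in the KCl list alone at 213 regions (10.5%) and in the untreated list alone at 53 (2.60%), whereas the untreated-alone Rpc155 regions had 565 (5.47%) and 628 (6.08%). The 213 were 12% of the regions with KCl H3K27ac, below the 31.9% over all KCl H3K27ac regions. Where both lists had a region (1566), the median fold was 6.62 untreated and 9.73 with KCl, a median ratio of 1.37, higher with KCl at 83.4%. At least 2.0 times was reached by 12.3% of these, against 2.81% over all overlapping H3K27ac regions, whose median ratio was 1.03. The ratio was 1.23 at shared and 1.17 at untreated-alone Rpc155 regions.

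H3K4me1 differed less between the conditions. It overlapped 83.5% of the regions untreated and 87.5% with KCl, close to the 83.4% and 86.4% of the untreated-alone regions. At 124 regions it was in the KCl list alone, 6.95% of those with KCl H3K4me1 and below the 21.3% over all its KCl regions. Where listed in both, its median fold was 8.17 and 9.36, and 2.35% reached 2.0 times against 1.13% over all. Active distal enhancers, defined as an H3K4me1 region that overlapped H3K27ac more than 1 kb from any gene end, held 35.0% of the regions untreated and 35.6% with KCl. For untreated-alone regions those shares were 41.2% and 38.8%.

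By position, 897 regions (44.0%, 41.8 to 46.2) had the summit within 1 kb of a gene end, 780 (38.3%) lay inside a gene further from its ends and 362 (17.8%) outside genes. The corresponding shares were 45.4%, 32.3% and 22.2% for shared regions, and 37.4%, 37.7% and 24.8% for untreated-alone regions. Distances to a transcription start could be given on 18 chromosomes, for 1978 regions. The list of starts also lacked some genes on these chromosomes, and a region at such a gene was measured to a more distant start. For example, a region in Rpl7, 204 bp from a gene end, was placed 2041673 bp from a start. The shares near and far from starts carry this error in all sets, and its size was not measured. Within 1 kb of a start lay 38.1% of them, against 33.5% of shared and 33.5% of untreated-alone regions. Over 5 kb from one lay 44.2%, against 53.7% and 57.0%. Near starts the regions were more spread out than the others. In the 500 bp before and after a start lay 10.1% and 12.4%, against 13.7% and 10.5% of shared and 12.7% and 13.5% of untreated-alone regions. From 500 to 1000 bp downstream lay 8.24%, against 4.24% and 4.26%, and from 1000 to 1500 bp 4.55%, against 1.46% and 1.57%. Upstream, 7.38% lay from 1000 to 500 bp before a start, against 5.13% and 3.08%.

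Taken from 500 to 2500 bp downstream, a range chosen after the strongest regions had been seen there, the count was 328 of 1978 regions (16.6%, 15.0 to 18.3). The shared regions had 156 of 2123 (7.35%, 6.27 to 8.54) and the untreated-alone regions 728 of 9988 (7.29%, 6.79 to 7.82). Of the 328, 239 had a KCl Gtf3c1 region. With only regions more than 10 kb from the other Rpc155 list the shares were 14.4% for KCl alone and 6.71% for untreated alone. Examples among the strongest 20 are Grk5 at 1332 bp, Myt1l at 1437 bp, Gdf11 at 1633 bp, Zswim5 at 941 bp, Lrrc8c at 805 bp and Mapk10 at 704 bp.

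**Figure D4:**
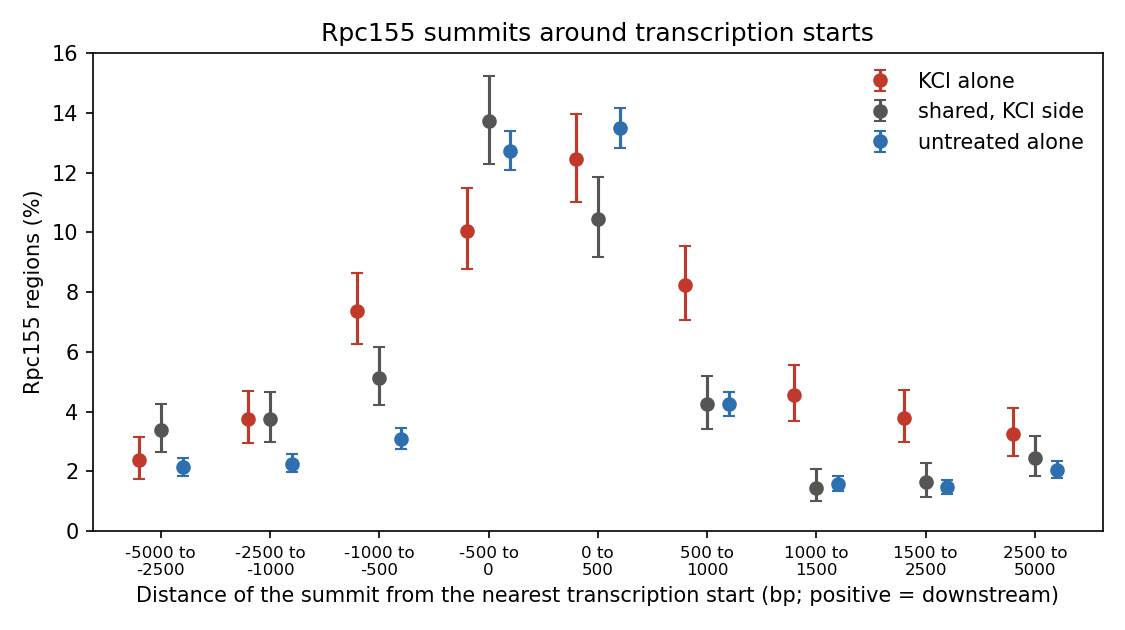
Share of Rpc155 summits (vertical axis, percent) in bins of distance from the nearest listed transcription start (horizontal axis, bp, negative upstream) for regions of the KCl list alone, shared regions and regions of the untreated list alone. The list of starts lacks some genes. From 500 to 1000 bp downstream the KCl-alone regions are at 8.24% and the other 2 sets at 4.24% and 4.26%.

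Of 32 immediate-early genes 18 (56.3%) had at least 1 within 5 kb of an end, against 1443 of 20665 protein-coding genes (6.98%). These were 25 of the 2039 regions. The list was made with earlier results of these data known. Untreated Rpc155 regions were also common at this list: 17 of the 32 had one within 5 kb (6246 of all 20665), and 6 of the 18 genes had none (Egr4, Jund, Junb, Gadd45b, Fos and Gadd45g). The other 14 immediate-early genes had no region of the KCl list alone within 5 kb of an end. At that distance Fosl2 and Btg2 had a shared one, and Arc, Maff and Csrnp1 had untreated ones alone. The other 9, among them Jun, Egr2, Egr3, Nr4a1 and Nr4a2, had no Rpc155 region that near. Further inside Nr4a2, 6988 bp from an end, lay a region of the KCl list alone (fold 3.995).

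The 25 regions near these 18 genes had Rpc155 folds of 2.43 to 8.90 with a median of 3.63, beside 3.61 over all 2039, and a median width of 602 bp, beside 360 bp. At Fos, a subunit gene of AP-1, one region lay over the start (chromosome 12, 85473838 to 85474439, fold 2.43) and another over the 3′ end (85476927 to 85477548, 4.36), with the nearest untreated regions 12910 and 9801 bp away. At Junb, another AP-1 subunit gene, 3 regions surrounded the gene, with folds of 5.09 upstream of the start and 3.27 and 4.18 at the 3′ side. Fosb had 2 (4.36 upstream and 3.45 near the 3′ end) and Jund 2 (3.27 each, one inside the gene and one beyond its end in Iqcn). Egr1, a zinc finger factor gene, had 2, one of 5.27 lying 1763 bp outside one end of the gene and one of 4.72 across the other end.

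Other transcription factor genes had single regions or a pair. Egr4 had 3.27, Nr4a3, a nuclear receptor gene, 4.54 and 3.27, Klf4 4.36 and Srf, which encodes the factor that drives serum response elements, 2.86. Npas4, a neuron-specific activity-dependent factor gene, had 2.64 within 5 kb of an end. The strongest near the signalling genes were Sik1 (8.90) and Gadd45g, a stress sensor gene (7.08, 27643 bp from an untreated region). Gadd45b had 3.80, Ier2 4.18, Ccn1, which encodes a matricellular protein, 3.63, Per1, a clock gene, 3.45, and the phosphatase genes Dusp6 and Dusp1 3.45 and 3.26.

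**Figure D5:**
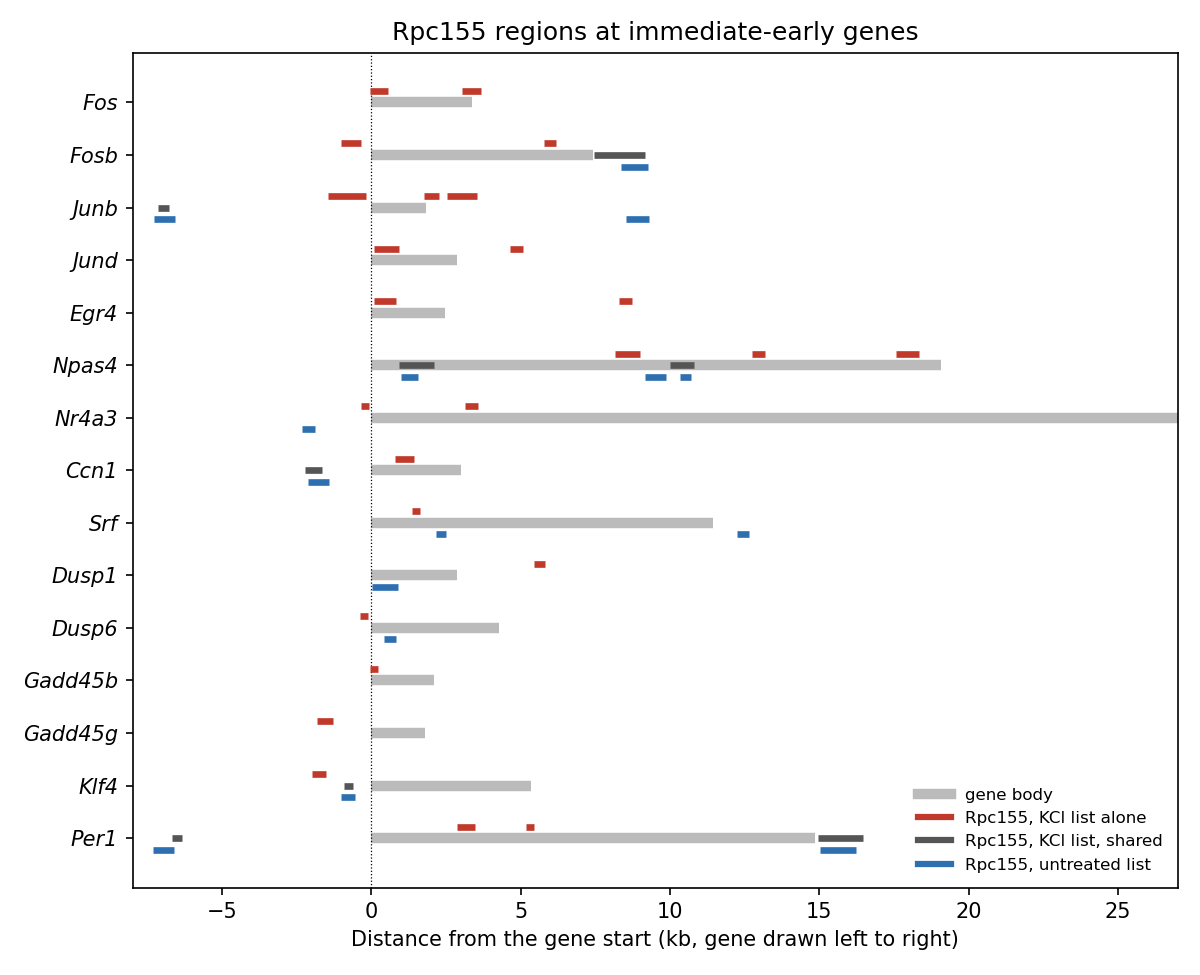
Rpc155 regions around 15 immediate-early genes, by distance from the gene start in kb (horizontal axis, in the direction of transcription); grey bars are gene bodies, red bars regions of the KCl list alone, dark bars shared KCl regions and blue bars untreated regions. Red bars lie at both ends of Fos and on both sides of Junb, with no untreated region within 5 kb of either gene. Ier2, Sik1 and Egr1 are not drawn because their strand was not in the table used. The gene body of Nr4a3 runs past the axis. The gene start drawn is the end of the annotated body, which for some genes, among them Npas4, Per1 and Srf, lies upstream of the start used for distances.

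All 25 of these regions overlapped a KCl Gtf3c1 region, with folds of 2.87 to 25.3, and 15 also an untreated one. At the 15 the median fold was 4.66 untreated and 12.9 with KCl, a median ratio of 2.83, higher with KCl at 15 of 15 and at least 2.0 times at 9. The Gtf3c1 regions at these genes were wide: the 25 regions shared 18 distinct KCl Gtf3c1 regions, and the KCl summit lay inside the Rpc155 region in only 9. Of the 10 regions without an untreated Gtf3c1 region, 8 lay in a KCl Gtf3c1 region that overlapped an untreated one elsewhere. At Fos both regions overlapped the same KCl Gtf3c1 region (15.6), and the untreated list had 14.7 at the start and none at the 3′ end. At Junb the KCl region (14.9) covered all 3, with untreated values of 8.07 upstream, none and 4.48 at the 3′ side. With the summit inside the Rpc155 region in 5 of the 15, the ratio was 1.75.

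H3K27ac was listed in both conditions at 17 of the 25, in the KCl list alone at 5 (Ccn1, Klf4, Egr4, the 3′ region of Fos and Gadd45g) and in neither at 3. These states hold for the Rpc155 region and not for the gene. Within 1 kb of a gene end, 31 of the 32 immediate-early genes had H3K27ac untreated and 32 with KCl. Both Fos regions had the same KCl value. At the 17 the median fold was 6.60 untreated and 13.6 with KCl, a median ratio of 2.27, with 10 at least 2.0 times. Over all overlapping H3K27ac regions 2.81% reached 2.0 times. The 17 were not separate cases: all 3 Junb regions had the same KCl value, and the Nr4a3 regions had the same values in both lists. The upstream region of Fosb went from 3.30 to 16.9 and the region at the 3′ side of Junb from 3.81 to 15.8. At the start of Fos the values were 6.60 and 7.01.

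Of 20 later activity-regulated genes 7 (35.0%) had a region within 5 kb of an end, beside the 6.98% of all protein-coding genes. At that distance 10 had no Rpc155 region of either list. Their folds were 5.995 at Crem, a cAMP-responsive factor gene, 3.46 at Rgs2, a G protein regulator gene, 3.27 at Plk2 and at Pcsk1, which encode a polo-like kinase and a prohormone convertase, 3.16 in Homer1, a postsynaptic scaffold gene, and 3.09 at Scg2, a secretogranin gene. Near Plk3 a region of 3.78 lay in a neighbouring gene. Gtf3c1 was in both lists at 3 (Rgs2 5.01 and 5.92, Homer1 3.76 and 12.9, Plk2 6.45 and 6.04), in the KCl list alone at Scg2, Pcsk1 and Crem, and in the untreated list alone near Plk3.

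Of 28 synaptic genes found, 8 had a region within 5 kb: Snap25, a vesicle fusion gene, with 2 (3.59 and 2.92), the glutamate receptor genes Gria2 (5.43) and Grin2b (3.45), Dlg2, a scaffold gene (3.81), Syt1, the calcium sensor of release (3.27), the adhesion genes Nlgn2 (4.00) and Nrxn2 (5.09), and Homer1. All 9 regions had KCl Gtf3c1 and 5 also untreated Gtf3c1. H3K27ac was in both lists at all 9, with a median ratio of 1.53, and none reached 2.0 times. Of 28 genes of the polymerase III machinery, 2 had a region, the gene of Gtf3c1 itself (fold 3.09, 221 bp from its start) and Polr3c, where the region lay in the neighbouring Rnf115 (3.45). That is 7.14%, near the 6.98% of all protein-coding genes. Of 11 housekeeping genes 0 had one, while 9 had an untreated region.

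The cell type label was checked by H3K27ac within 1 kb of the ends of marker genes. The mark was listed at 12 of 12 glutamatergic genes in both conditions and at 9 untreated and 10 KCl of 12 GABAergic genes. It was listed at 7 and 6 of 10 astrocyte, 1 and 2 of 9 oligodendrocyte, 1 and 0 of 10 microglial, 1 and 1 of 8 endothelial and 2 and 3 of 10 non-neural genes. Regions of the KCl list alone lay within 5 kb of Neurod6 (4.18) and Neurod2 (3.63), both transcription factor genes of excitatory neurons, of the GABAergic genes Dlx1 (4.67), Dlx6 (3.81) and Slc32a1 (3.45), of Gfap (4.36) and of Olig2 (3.45), and of 0 of the microglial, endothelial and non-neural genes. In these unsorted cultures a change in the number of cells of a type and a change per cell cannot be told apart, and the part of astrocytes in the regions was not tested.

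Few of the regions lay at the classical genes of the polymerase. The rule largely sets this, since 187 of the 189 KCl regions at such genes overlapped an untreated region. The share was also near that of the untreated-alone regions. Only 2 of the 2039 regions (0.0981%, exact interval 0.0119 to 0.354) overlapped a tRNA or other polymerase III gene or its 200 bp flanks, against 187 of the 2194 shared regions (8.52%) and 15 of the 10322 untreated-alone regions (0.145%). Both lay on chromosome 13: one at the leucine tRNA gene n-TLcaa2 (21914703 to 21915004, fold 4.03) and one at the serine tRNA gene n-TSaga5 (21919085 to 21919443, fold 4.54). Neither overlapped Gtf3c1 or H3K27ac in either list. Of 10 listed genes of other polymerase III transcripts, such as Rmrp and Rn7sk, 0 had a region of the KCl list alone within 5 kb and 9 had a KCl region of any kind.

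Several genes held more than 1 of the regions. Ank3, which encodes ankyrin G of the axon initial segment and is 494 kb long, held 5 summits, and Celf2, an RNA-binding protein gene, Pde4d, a phosphodiesterase gene, Tcf4, a basic helix-loop-helix factor gene, and Tenm2, a teneurin gene, held 4 each. Adgra1, Akap6, Etl4, Grm5, Homer1, Map2, Mxi1, Myt1l and Npas4 held 3. Most are long, up to 1302 kb for Pde4d, but Npas4 spans 19.1 kb, Adgra1 44.0 kb and Mxi1 63.2 kb. Long genes also held untreated-alone summits, 10 in Celf2, 9 in Tenm2, 8 in Myt1l, 7 in Pde4d, 7 in Tcf4 and 3 in Ank3. Map2, a dendritic microtubule protein gene, held 0 of these but had 1 shared region.

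Within these genes the regions were unlike each other. In Tcf4 the 4 folds were 7.63, 5.99, 3.45 and 8.17, and Gtf3c1 was higher with KCl at each, from 5.91 to 12.2, 6.81 to 14.9, 3.38 to 5.74 and 5.91 to 16.2. In Ank3 the folds were 2.80 to 5.27, and Gtf3c1 was lower with KCl at 3 of the 5 (3.58 and 2.87, 4.12 and 3.41, 6.63 and 5.74) and higher at the other two. All 5 Ank3 regions were active distal enhancers in both conditions. In Map2 one region 2470 bp from the start had a fold of 7.26 with Gtf3c1 at 8.60 and 16.9, and the other 2 had folds of 3.27 and 3.77. In Npas4 all 3 had higher Gtf3c1 with KCl: 2.45 and 11.6, 5.73 and 11.6, and 4.30 and 14.4.

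Promoter sequence could be looked at for the 305 regions (15.4% of 1978) that overlapped a RefSeq window of 300 bases, from 250 before to 50 after a start, with 361 windows overlapped. Genes missing from the list of starts had no window, so regions at their promoters are not among the 305. Their median GC content was 61.0%, against 59.5% at shared, 61.3% at untreated-alone and 53.0% at all 31396 windows. The median ratio of observed to expected CpG was 0.804, against 0.793, 0.813 and 0.389 in the same order. The cAMP response element holds a CpG, and the part of CpG content in its shares was not tested. The cAMP response element TGACGTCA, the site of CREB, was searched on both strands and found in 24 of the 361 windows (6.65%, 4.31 to 9.73), in 47 of 566 shared (8.30%), in 103 of 2786 untreated-alone (3.70%) and in 1.83% of all windows. The AP-1 motif TGANTCA was in 2.22%, 3.89%, 4.74% and 7.85%, and the B box, the TFIIIC element of tRNA genes, in 0.554%, 0.883%, 0.251% and 0.127%. No TGACGTCA contains a TGANTCA.

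Of the 24 windows with the cAMP response element, in 22 genes by name, the element lay inside the Rpc155 region in 6, including those of Scg2, Magohb, Ilvbl and Nr2e1. The 24 windows were not all separate cases. Emc10 and Znrd1 had repeated windows, and Fam71e1 and Znrd1as shared their Rpc155 values. The interval given for the 24 windows treats them as separate. In the printed Scg2 promoter it starts 68 bases before the start and is inside the region. In the printed Plk2 promoter it starts 62 bases before the start, outside the region, which ends further upstream. The printed windows of Fos, Junb, Gadd45b and Dusp6 hold none of the 3 motifs as spelled.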

How the data were processed

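Regions of each antibody and condition were taken as the authors deposited them, 1 peak list each. The submitters' processing notes name Bowtie2, MACS2 and the build GRCm38/mm10; the sources used here do not give versions, filters or whether replicates were pooled. The deposited fold enrichment is a ratio of summit to background. The −log10 p and −log10 q were deposited as the peak caller wrote them. The deposited score is 10 times the −log10 q rounded down (the factor was read from the values). Read counts are not part of these lists, and the depth is unknown. A background of 4.89 fragments per position (untreated) and 4.51 (KCl) was derived from the spacing between Rpc155 folds. This single value fitted 85.65% of the untreated and 74.6% of the KCl Rpc155 regions. Fold values were set side by side between lists without adjustment.

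A common length of 1 bp or more counted as overlap. The overlap code was checked on simulated regions and against bedtools 2.31.1. Analyses used Python 3.11.15, numpy 2.4.6, pandas 2.3.3 and scipy 1.17.1. Where several regions of an antibody overlapped a region, the highest fold was used. Genes and promoter sequences came from RefSeq tables (GRCm38.p6). The start sites used cover 18 of the 19 chromosomes, so start distances leave out chromosome 18. They also lack some genes on the other chromosomes. The planned motif search around summits was replaced by promoter windows, since no genome sequence was used here. Of 203 listed symbols, 199 were found. Input libraries were not analysed here, and 0 columns of per-sample values stayed unused. With 1 list per antibody and condition, shares carry exact 95% intervals and no test was made. The authors' q threshold was taken as 0.05.

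The members and gene lists were chosen with earlier results of these data known. Named regions were the 20 highest by −log10 q, those within 5 kb of an end of a listed gene, genes with 3 or more summits inside, the 3 regions on either side of the overlap rule, the 5 with the highest KCl Gtf3c1 fold and no untreated Gtf3c1, the 5 strongest without Gtf3c1, and those at polymerase III genes. Names of predicted gene models were not used, so a name can be that of a distant gene. Alternatives changed the q threshold, the overlap, the distance to the untreated list, list length and distances to genes.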

Additional observations from a re-analysis of the deposited data

How the results depend on the processing

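Of 58 alternatives, 33 gave a share inside the counting interval, a count within 1.5 times or a median fold within 1 SD over the regions, and 25 moved. No paired analysis was possible because each antibody and condition has a single list, and leaving out a replicate was not possible for the same reason. The planned 100-base motif windows were not run, since no genome sequence was used here.

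With a q of 1e-05 or lower, 394 regions were left, with a median fold of 4.54, 9 immediate-early genes with a region within 5 kb, 0.508% at polymerase III genes, KCl Gtf3c1 at 88.8%, untreated Gtf3c1 at 74.4%, untreated H3K4me1 at 85.5% and 19.5% of summits 500 to 2500 bp downstream of a start. With the untreated list cut to the length of the KCl list, KCl and untreated Gtf3c1 were at 76.3% and 68.6%, and H3K27ac at 89.2% and 83.05%. Requiring an overlap of 50% with the other antibody gave 60.9% and 48.65% for Gtf3c1, 82.9% and 70.7% for H3K27ac and 77.6% and 72.9% for H3K4me1. Requiring 50% to call an Rpc155 region shared gave 64.5% for untreated Gtf3c1. Regions over 1 kb from an untreated one had H3K27ac at 85.2% and 76.4% and 41.5% of summits within 1 kb of a gene end. Within 5 kb of a gene end lay 67.3%. The downstream share was 14.4% over 10 kb from an untreated region and 14.7% with protein-coding starts alone. Under all 5 alternatives run on both shares, the KCl share was above the untreated share for Gtf3c1 and for H3K27ac. The downstream alternatives and the restriction to Gtf3c1 summits inside a region were chosen after seeing the data. Under that restriction the share with the higher KCl value was 70.2%, beside 71.4% without it, which is inside the counting interval.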
